A study of Homo sapiens with 9 samples.

Results

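A stretch of chromosome 8 in band 8q21, from 86550000 to 86850000 on hg19, held 182 of the 19861 p300 peaks deposited for this series. It lies in a wider window from 85 to 90 Mb. The window held 232 peaks by midpoint, of which 182 lay in the stretch, called the array here, and 50 in the rest of the window. The array makes up 6% of the window's length and held 78.4% of its peaks. The bounds were chosen by peak density and by the recurrence of peaks between lists, as measured in these same lists. Density and recurrence are therefore described below without a test. Width and score were not used for the choice, but whether they go with recurrence was not tested.

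p300, the product of EP300, is a histone acetyltransferase and coactivator that is found at promoters and enhancers. Tandem arrays of large repeat units, called macrosatellites, are made of many near-identical copies in a row, so a short read often matches several copies equally well. Band 8q21 is known for such an array, whose units carry copies of the REXO1L family, related by name to the RNA exonuclease gene REXO1. In the RefSeq gene table for GRCh38 the family has 11 entries on chromosome 8. All 11 are listed as pseudogenes, between CA2, which encodes a carbonic anhydrase, and PSKH2, which encodes a protein kinase. That table uses another build than the peak lists, so no peak was assigned to a copy. No sequence or annotation of hg19 was used, so a repeat was looked for only through the spacing of peaks.

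The lists came from PC3, a line from a metastatic human prostate carcinoma. Cells were given either no drug (2 lists) or MnTE-2-PyP at 30 µM for 24 h (3 lists). The drug is a manganese porphyrin and acts as a mimic of superoxide dismutase. Every culture, the undrugged ones included, was then irradiated with 20 Gy and fixed 1 h later, so no list shows unirradiated cells. Values are given in the order untreated lists 1 and 2, then MnTE-2-PyP lists 1, 2 and 3. The lists held 528 to 10059 peaks each, and each peak has 1 score whose scale is not named. The score is the authors' own and was used here only to describe and rank peaks within a list. No read counts are in the lists, so the depth behind a peak is unknown. The labels do not say whether lists of a group came from separate cultures, so p-values measure the spread between lists, which may be technical.

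By midpoint, the nearest peaks outside the window were a peak at 84951917 to 84952208 in MnTE-2-PyP list 2 (score 7.08) and one at 90007852 to 90008142 in the same list (score 5.67). The nearest inside it were at 85125315 to 85125539 in MnTE-2-PyP list 1 (score 11.1) and 89948365 to 89948636 in MnTE-2-PyP list 3 (score 4.80). On its left side the array was set off by 65.9 kb without a peak, and on its right side by 120.1 kb. Its first peaks began at 86555062 and its last ended at 86840885. By midpoint, the peaks nearest to its bounds were 86488831 to 86489065 (MnTE-2-PyP list 1, score 21.9) and 86960982 to 86961272 (MnTE-2-PyP list 2, 4.32) outside it. Inside it they were 86555137 to 86555336 (MnTE-2-PyP list 3, 5.31) and 86839130 to 86840885 (untreated list 2, 14.6).

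The number of array peaks varied less than the length of the lists. The untreated lists held 43 and 23 array peaks, and the MnTE-2-PyP lists held 51, 26 and 39. These numbers differed 2.22-fold between the highest and lowest list, while the lists themselves differed 19.1-fold in length. The rest of the window held 4 and 8 peaks without the drug and 18, 17 and 3 with it, a 6-fold range. The 2 lists with the fewest array peaks, untreated list 2 and MnTE-2-PyP list 2, were those whose narrowest peak was widest. Their narrowest peaks anywhere in the genome were 332 and 291 bp, against 199, 193 and 200 bp in untreated list 1 and MnTE-2-PyP lists 1 and 3. Array peaks under 300 bp numbered 11 in untreated list 1, 0 in untreated list 2, and 13, 1 and 18 in the MnTE-2-PyP lists. The part of narrowest width in the peak number was not tested.

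**Figure D1:**
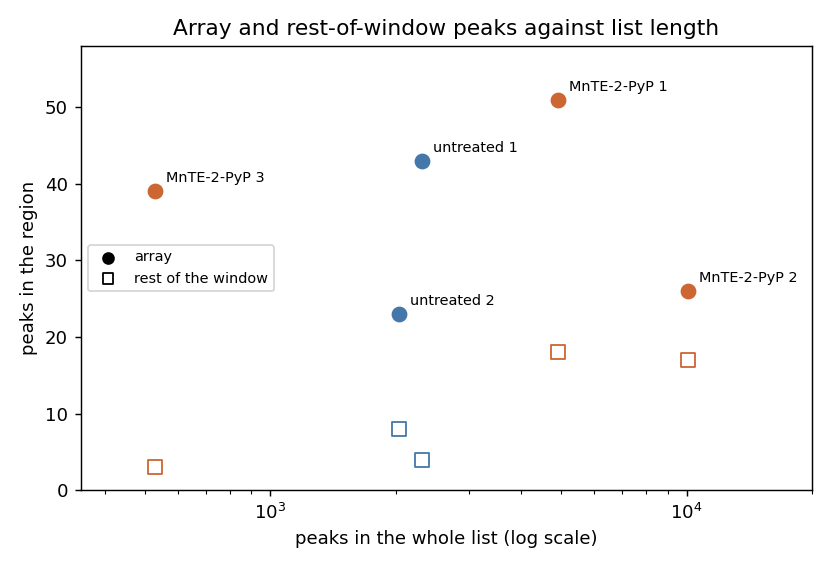
Number of peaks in the array (filled circles) and in the rest of the window (open squares) against the number of peaks in the whole list (log scale), with untreated lists in blue and MnTE-2-PyP lists in orange. Array peaks lie between 23 and 51 over lists of 528 to 10059 peaks, and the shortest list holds 39.

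The length covered by array peaks was closer between lists than their number. It was 26.1 and 21.7 kb without the drug and 35.5, 31.2 and 21.1 kb with it, a 1.69-fold range. From the end of one to the start of the next, array peaks of a list lay a median of 1370 and 6334 bp apart in the untreated pair. In the others they lay 1044, 4496 and 1427 bp apart. In the rest of the window distances were taken between midpoints, without the step across the array. Their medians were 577 and 519 kb, and 169, 112 and 655 kb. Untreated list 1 and MnTE-2-PyP list 3 had only 4 and 3 peaks there. The 2 lists with few array peaks had the longest distances within the array, but not in the rest of the window.

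The array fell into 2 parts. Its left part ran 21.2 kb, from 86555062 to 86576293, and its right part 114.4 kb, from 86726466 to 86840885. Between them 150.2 kb, from 86576294 to 86726465, held no peak of any list. The next longest distance between merged regions of the array was 8.19 kb, and the median was 1.27 kb. Whether hg19 holds sequence that reads can match in the empty stretch was not tested. The left part held 11 and 3 peaks without the drug and 13, 4 and 7 with it. The right part held 32 and 20, and 38, 22 and 32. Both parts had peaks in every list.

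Most array peaks were gathered in wide blocks. Joining peaks of any list that lay within 500 bp of each other gave 11 blocks of 2 kb or more, which were chosen as a unit after the map of peaks was seen. They were 2149 to 3103 bp wide, with a median of 2734 bp. All 11 held a peak in each of the 5 lists. Blocks were joined across lists in an array chosen by recurrence, so nothing is read from that. Joined stretches of this width elsewhere in the genome were not counted. Together the 11 blocks held 112 of the 182 array peaks (61.5%) in 29.6 kb. Blocks took up 77.5% and 88.4% of the covered array length without the drug and 72.4%, 85.9% and 85.4% with it. Within the blocks the lists covered 20.3 and 19.2 kb without the drug and 25.7, 26.8 and 17.98 kb with it. Outside them they covered 5.88 and 2.53 kb, and 9.79, 4.38 and 3.08 kb.

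**Figure D2:**
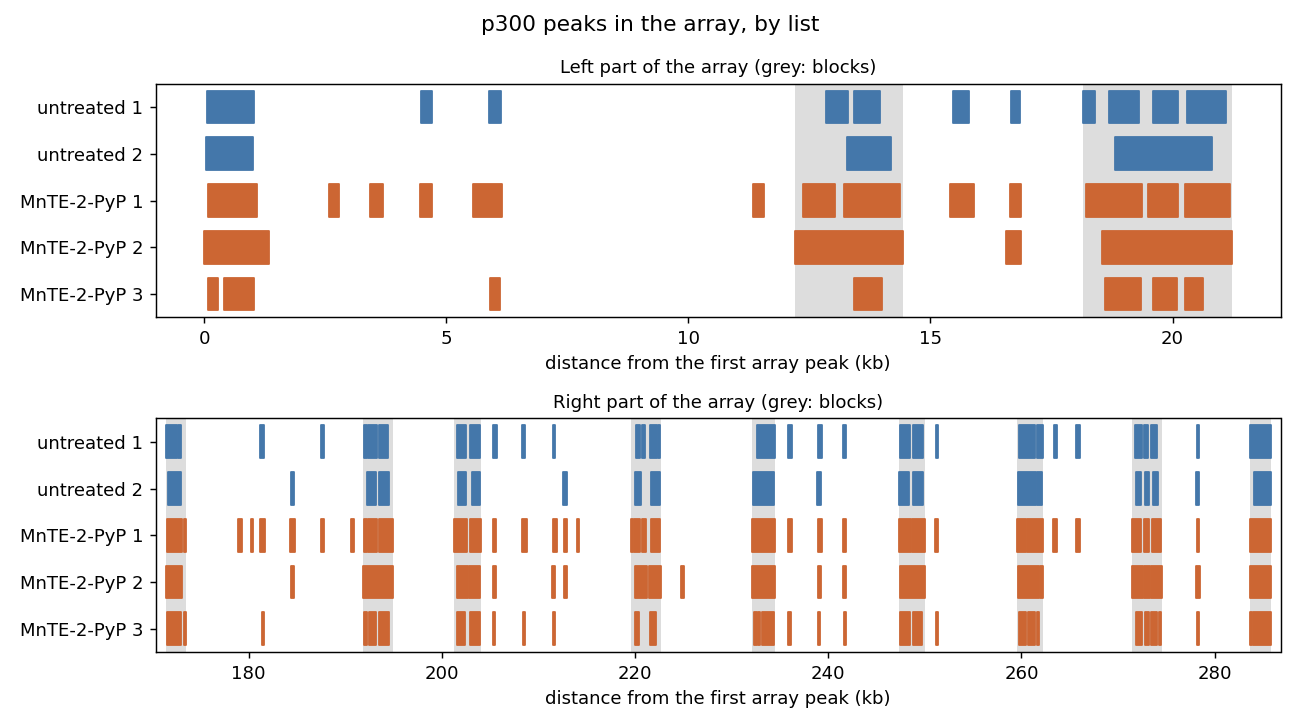
Peaks of each list along the left part (upper panel) and right part (lower panel) of the array, as distance in kb from the first array peak, with untreated lists in blue, MnTE-2-PyP lists in orange and the 11 blocks in grey. Every block has a peak in all 5 lists, and a list covers 25.9% to 100% of a block. The narrow peaks between the blocks are mostly those of untreated list 1 and MnTE-2-PyP list 1.

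In the right part the blocks stood in a row. They began at 86726466, 86746939, 86756293, 86774621, 86787158, 86802382, 86814635, 86826479 and 86838680. The distances from one start to the next were 20.5, 9.35, 18.3, 12.54, 15.2, 12.3, 11.8 and 12.2 kb in that order. The last 4 blocks thus stood at nearly even steps. The 2 blocks of the left part began at 86567257 and 86573218, 5.96 kb apart. The first merged region of the array, at 86555062 to 86556405, lay 12.2 kb before the first of them. Of 9 steps between neighbouring blocks, 4 lay within 5% of their median of 12.3 kb.

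A like distance was among the maxima of the peak profile, which holds the same blocks and is no separate sign of that distance. For each 50 bp of the right part the number of lists with a peak there was taken, and this profile was compared with itself after a shift, a measure added after the map was seen. The correlation had local maxima at shifts of 12.2 kb (0.30), 27.45 kb (0.23) and 39.65 kb (0.36), while its median over shifts of 5 kb and more was -0.018. In each list alone the second highest maximum lay between 12.15 and 12.3 kb. Correlations at exactly 12.2 kb in single lists were 0.24 and 0.24 without the drug and 0.26, 0.29 and 0.26 with it. The highest maximum in every list lay between 39.6 and 39.8 kb. These are correlations across 2288 bins of one stretch, which share their blocks and are not independent. The lists are measurements of the same genome, so their likeness is no independent sign of a repeat.

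**Figure D3:**
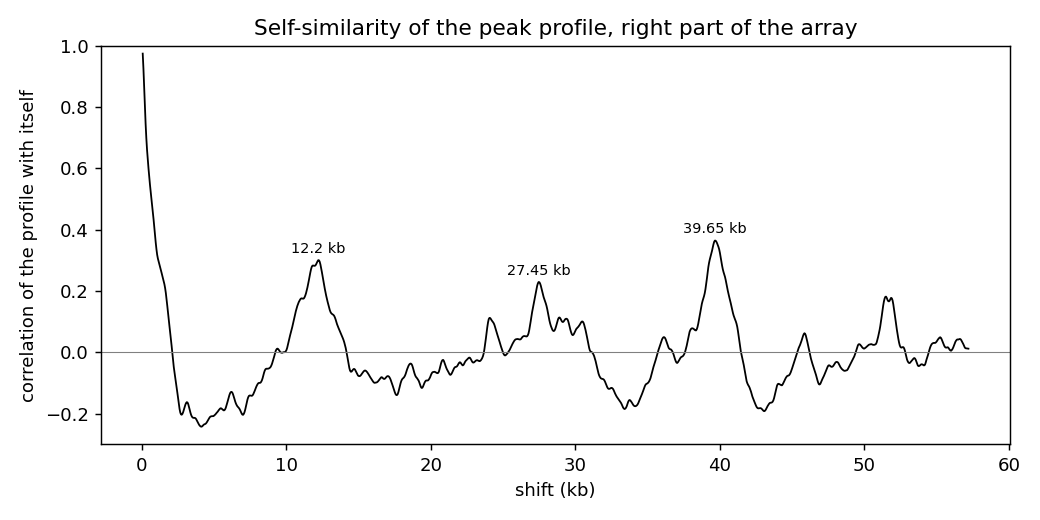
Correlation of the peak profile of the right part with itself (y axis) after a shift given in kb (x axis), over all 5 lists. Maxima are marked at 12.2, 27.45 and 39.65 kb.

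The best-scoring distance between peak midpoints differed from list to list. Over all lists, 336 of 3424 pairs of midpoints of the same list lay within 100 bp of a multiple of 3.05 kb, where evenly spread pairs would give 225.6. MnTE-2-PyP list 1 alone also gave 3.05 kb. The other lists alone gave 50.5 and 27.7 kb (untreated lists 1 and 2) and 36 and 58.1 kb (MnTE-2-PyP lists 2 and 3). Scoring the pairs by their ratio to the even number gave 40.6 kb in place of 3.05. The period over all lists was 3.05 kb when pairs were scored by their excess, and without any 1 list. It was also 3.05 kb when pairs within 50 or 200 bp of a multiple were counted in place of 100 bp. Apart from MnTE-2-PyP list 1, pairs near a multiple of 3.05 kb were not counted in single lists. Whether the other lists share that period was therefore not tested.

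Some blocks were interrupted at the same place in 4 or 5 lists, and others were not. The block at 86756293 to 86759067 was split into 2 peaks in each of the 5 lists, and 187 bp from 86757738 to 86757924 were covered by none. The block at 86774621 to 86777707 was broken in all 5 lists over 221 bp from 86776284 to 86776504. The block at 86826479 to 86829581 was cut into 3 peaks in 4 lists and into 4 peaks in MnTE-2-PyP list 3. The blocks at 86746939 and 86802382 were broken in 4 lists, at 86748350 to 86748554 and at 86803581 to 86803757, and left whole by MnTE-2-PyP list 2. Measured from the start of each block, these breaks began 1.20 to 1.66 kb into it in the 4 blocks broken at one place in 4 or 5 lists. The blocks at 86787158 and 86838680 were 1 peak in 4 of the lists and were split in MnTE-2-PyP list 3 alone, into 3 and 2 peaks. In the block at 86567257, untreated list 1 broke at 86568361 to 86568486 and MnTE-2-PyP list 1 at 86568099 to 86568267, without overlap. In the block at 86726466, untreated list 1 broke at 86727602 to 86727749, apart from MnTE-2-PyP lists 1 (86728116 to 86728342) and 3 (86728041 to 86728373). In the block at 86814635, MnTE-2-PyP list 2 broke at 86816857 to 86817024, where no other list did. The blocks were thus not alike in outline.

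The block at 86746939 to 86750034 shows how differently one stretch was cut. It was 3 peaks in untreated list 1, 2 in untreated list 2, 3 in MnTE-2-PyP list 1, 1 in MnTE-2-PyP list 2 and 3 in MnTE-2-PyP list 3. Its highest scores were 21.0 and 11.4 without the drug and 31.5, 28.4 and 13.8 with it. These stood at percentiles 89.1 and 93.8, and 97.4, 98.9 and 83.0, of their own lists. The single peak of MnTE-2-PyP list 2 was 3043 bp wide and had that list's highest score in the array.

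**Figure D4:**
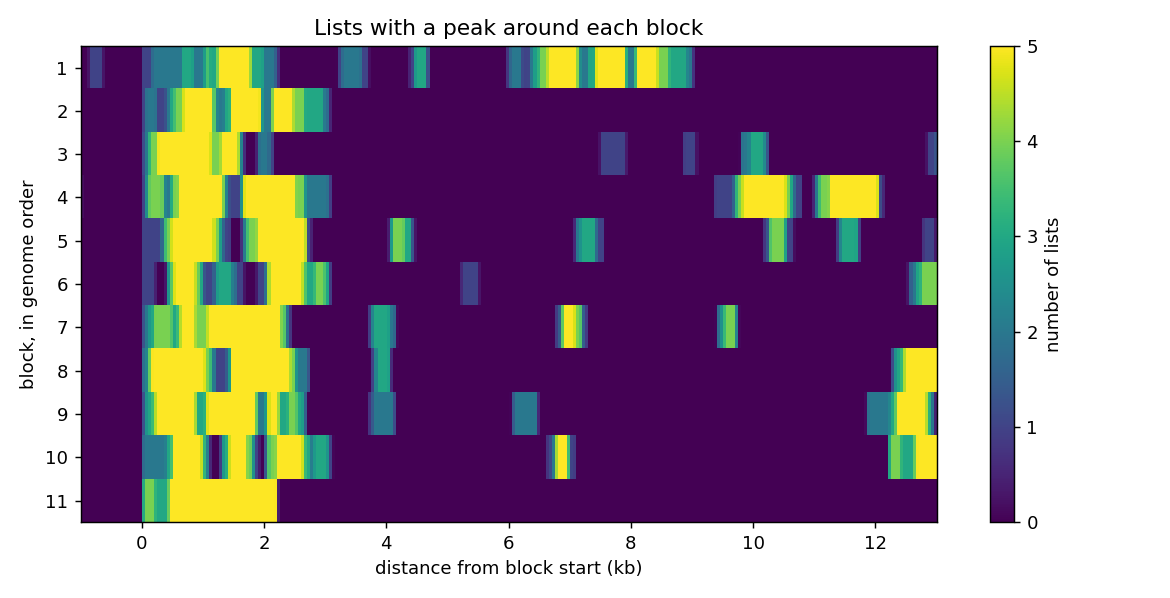
Number of lists with a peak (colour, 0 to 5) at each distance from the start of the 11 blocks (x axis, kb), blocks in genome order from top to bottom. Blocks are 2149 to 3103 bp wide, and blocks 5, 7, 8 and 9 are followed by a narrow stretch that starts 3.71 to 4.03 kb from the block start.

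Outside the blocks lay 27 narrower stretches, 196 to 1344 bp wide with a median of 427 bp, of which 3 were in all 5 lists. Some stood at like distances from a block. In 4 cases a stretch of 315 to 450 bp began 1.01 to 1.27 kb after the end of a block, at 86760324, 86790863, 86806133 and 86818347. A further one began 0.966 kb after the first block. The 4 were held by 4, 3, 3 and 2 lists, always including untreated list 1 and MnTE-2-PyP list 1 and never untreated list 2. Of the 3 held by all lists, 1 is the first region of the array. The other two, at 86793915 to 86794449 and 86833091 to 86833573, began 6.76 and 6.61 kb from the start of the block before them. At the second the scores were 10.7 and 6.89 without the drug and 28.9, 16.8 and 12.5 with it. These distances were read off after the values were seen and are a description of a few sites.

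Peaks of the array recurred between lists. Joining peaks wherever 2 lists overlapped, by at least 1 bp, gave 44 regions in the array and 36 in the rest of the window. In the array 18 regions (40.9%) were in all 5 lists, 3 in 4, 8 in 3, 6 in 2 and 9 in a single list. Across the genome, 0.886% of the 16701 merged regions were in all 5 lists. In the rest of the window 0 of 36 were in all 5 lists and 27 (75%) were in a single list. Regions in 3 or more lists were 29 of 44 (65.9%) in the array, where 4.23% of all merged regions were. Recurrence chose the array, so nothing is read from these contrasts. Of the 182 array peaks, 173 (95.1%) overlapped a peak of another list, where 24.7% of all peaks did. The 9 that did not were 8 of MnTE-2-PyP list 1 and 1 of MnTE-2-PyP list 2. Every array peak of untreated lists 1 and 2 and MnTE-2-PyP list 3 was shared.

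MnTE-2-PyP list 1 held 43 of the 44 array regions, so a region of another list was nearly bound to be among them. Recurrence also chose the array, so nothing is read from the overlaps that follow. All 32 array regions of untreated list 1, all 20 of untreated list 2 and all 27 of MnTE-2-PyP list 3 were also among the 43 regions of MnTE-2-PyP list 1. MnTE-2-PyP list 2 had 25 regions and shared 24 of them (96%) with it, or 55.8% of the 43. Untreated lists 1 and 2 shared 18 regions, 56.3% of the first list's and 90% of the second's. MnTE-2-PyP lists 2 and 3 shared 21, 84% and 77.8% of theirs. Overlap of these pairs over the whole lists was not counted. In the whole lists, 42.9% and 33.2% of peaks without the drug overlapped a peak of any other list. With the drug 27.7%, 14.1% and 84.7% did.

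Array regions in a single list were 196 to 429 bp wide with a median of 227 bp, and those in all 5 lists were 483 to 3096 bp with a median of 1395 bp. Merging over more lists widens a region by itself, so the 2 sets of widths cannot be compared directly. The 18 regions in all 5 lists were at 86555062, 86567257, 86573218, 86726466, 86746939, 86756293, 86757925, 86775006, 86776505, 86787158, 86793915, 86802382, 86814635, 86826479, 86827755, 86828493, 86833091 and 86838680. The highest mean percentile was that of 86726466 to 86728148, at 93.1. There the scores were 18.9 and 11.9 without the drug and 26.5, 23.1 and 17.7 with it. The lowest was that of 86827755 to 86828397, at 56.6, with scores of 8.34 and 4.99, and 11.5, 7.80 and 4.04.

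No array region was in every list of one group and in no list of the other. The number in all 3 MnTE-2-PyP lists and no untreated list was 0 of 44, and the number in both untreated and no MnTE-2-PyP list was 0 of 44. In the rest of the window these numbers were 1 of 36 and 0 of 36. The share of all merged regions with either pattern was not counted, so nothing is read from these numbers. Regions in MnTE-2-PyP lists alone were 10 of 44 (8 in list 1, 1 in list 2, 1 in lists 1 and 3), where 76.4% of all merged regions were in MnTE-2-PyP lists alone. Regions in untreated lists alone were 0 of 44, where 16.2% of all merged regions were. The remaining 34 were in both groups. Recurrence chose the array, and MnTE-2-PyP list 1 held 43 of its 44 regions, so nothing is read from these contrasts either. No single region was tested.

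Wide peaks made up a larger share of the array than of the lists. Of the 184 peaks of 1000 bp or more in the whole series, 46 (25%) lay in these 300 kb, which held 0.916% of all peaks. Among the 182 array peaks 46 were that wide, and among all peaks 0.926% were. By list they were 6 of 17 and 8 of 34 without the drug and 13 of 43, 15 of 83 and 4 of 7 with it. Such peaks made up 13.95% and 34.8% of array peaks without the drug and 25.5%, 57.7% and 10.3% with it. In the whole lists they made up 0.735% and 1.67%, and 0.874%, 0.825% and 1.33%. The array's share of wide peaks exceeded its list's in all 5 lists. This contrast cannot be told apart from the choice of the array by recurrence. The widest array peak was the second widest of its list in both untreated lists and in MnTE-2-PyP lists 1 and 3, and the fourth widest in MnTE-2-PyP list 2. These peaks were 2194 bp (86838690 to 86840883), 2136 bp (86787275 to 86789410), 2403 bp (86787194 to 86789596), 1797 bp (86839087 to 86840883) and 3043 bp. The block at 86838680 gave the widest peak in untreated list 1 and MnTE-2-PyP list 3, and that at 86787158 in untreated list 2 and MnTE-2-PyP list 1. The widest peak of MnTE-2-PyP list 2 lay in the block at 86746939.

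Median width was larger in the array than in the rest of the window in each of the 5 lists. It was 429 and 920 bp in the array for the untreated pair and 475, 1093 and 414 bp for the others. In the rest of the window it was 214 and 343 bp, and 214, 346 and 272 bp. Those medians rest on 4 and 8 peaks without the drug, and on 18, 17 and 3 with it. The mean difference was 388.5 ± 260.1 bp (SD, n = 5). The exact two-sided sign-flip permutation test over the 5 lists gave p = 0.063, the smallest it can give. Adjusted over the 6 within-list tests this was 0.094, so the difference did not pass 0.05 and the design could not let it. The widest peak in the rest of the window was 605 bp, in MnTE-2-PyP list 2. Regions in a single list were 20.5% of the array's and 75% of the rest's, since recurrence chose the array. The test cannot tell a difference in width apart from that choice.

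Scores stood at a higher percentile in the array than in the rest of the window in each list, by very unequal amounts. The median percentile of array peaks within their list was 75.3 and 80.9 without the drug and 92.9, 96.8 and 48.7 with it. Rest-of-window peaks stood at 71.6 and 71.6, and at 62.9, 33.2 and 30.6. As for width, these medians rest on 4 and 8 peaks, and on 18, 17 and 3. The difference was positive in each of the 5 lists, with a mean of 24.9 ± 23.8 points (SD, n = 5; exact sign-flip permutation p = 0.063, adjusted 0.094). It ran from 3.66 points in untreated list 1 to 63.6 in MnTE-2-PyP list 2. With scores at or above the pooled median of 5.90 alone, it was 14.6 points (exact sign-flip permutation p = 0.31). Without MnTE-2-PyP list 2 it was 15.3 points. With means in place of medians it was 21.8 points and positive in 4 of 5 lists, with -0.28 in untreated list 1 (exact sign-flip permutation p = 0.125). Against all peaks outside the window it was 30.1 points and positive in 4 of 5 lists, with -1.85 in MnTE-2-PyP list 3 (exact sign-flip permutation p = 0.125). As with width, these tests cannot tell a difference in score apart from the choice of the array by recurrence.

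**Figure D5:**
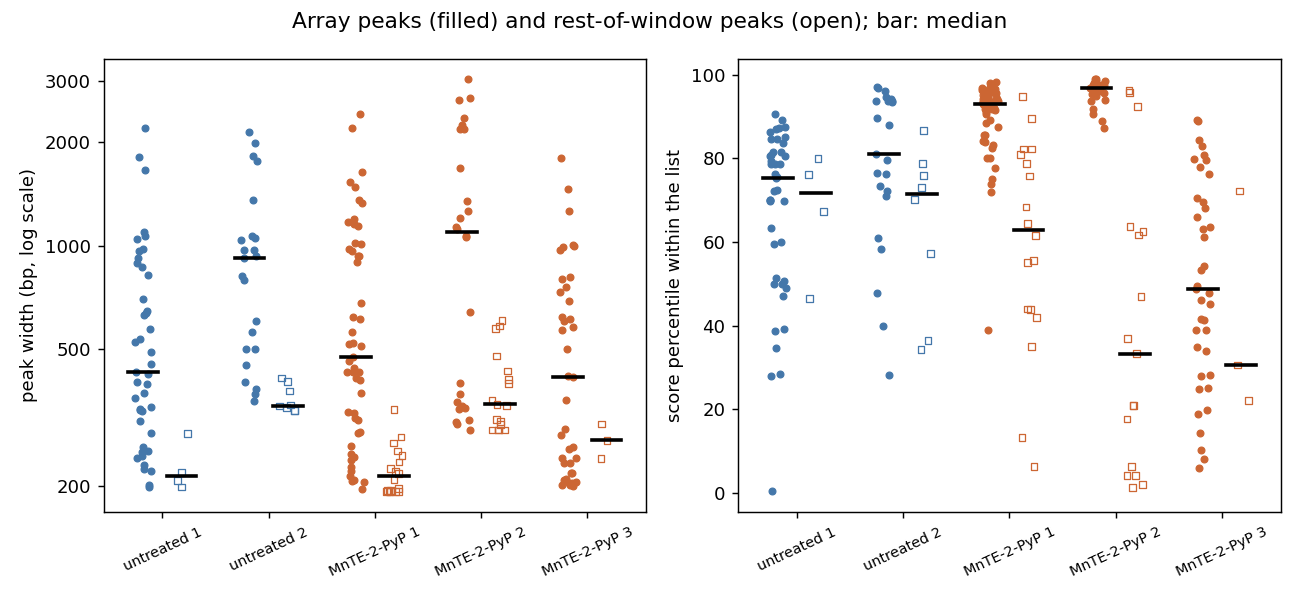
Width (left, bp, log scale) and score percentile within the list (right) of each peak in the array (filled circles) and in the rest of the window (open squares), with untreated lists in blue, MnTE-2-PyP lists in orange and bars at the medians. The array median is above the rest-of-window median in all 5 lists on both axes, and array percentiles in MnTE-2-PyP list 3 spread from 5.87 to 89.0.

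The lists differed in where array peaks ranked. In MnTE-2-PyP list 2 all 26 array peaks were above the list's median score, and in MnTE-2-PyP list 1 50 of 51 were. In MnTE-2-PyP list 3 18 of 39 were. The untreated lists had 33 of 43 and 20 of 23 above it. The array percentiles ran from 0.346 to 90.6 in untreated list 1 and from 28.3 to 97.0 in untreated list 2. They ran from 38.8 to 98.2, from 87.2 to 98.9 and from 5.87 to 89.0 in the MnTE-2-PyP lists. The highest-scoring array peaks were 86828510 to 86829146 in untreated list 1 (score 23.3, rank 218 of 2313) and 86555104 to 86556073 in untreated list 2 (16.4, rank 62 of 2039). In the MnTE-2-PyP lists they were 86767727 to 86767988 (35.5, rank 90 of 4922), 86746939 to 86749981 (28.4, rank 112 of 10059) and 86726578 to 86728040 (17.7, rank 59 of 528). No list had its highest-scoring peak in the array, and 3 of these 5 peaks lay in blocks.

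Ranks within the array followed the blocks only in part. Peaks in blocks had median percentiles of 77.4 and 84.4 without the drug and 92.4, 97.5 and 63.2 with it. Array peaks outside blocks had 69.9 and 79.6, and 93.2, 95.0 and 40.2. In MnTE-2-PyP list 1 the narrow peaks ranked as high as the blocks.

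The drug comparison asked whether the array held a different part of the p300 peaks with MnTE-2-PyP. Array peaks were 1.86% and 1.13% of the peaks without the drug and 1.04%, 0.258% and 7.39% with it. The share in MnTE-2-PyP list 3 had a 95% Wilson interval of 5.45 to 9.94%, which covers counting error only. The means were 1.49% ± 0.517 (SD, n = 2) and 2.89% ± 3.91 (SD, n = 3), a difference of 1.40 points that was smaller than the spread among the MnTE-2-PyP lists (exact two-sided permutation p = 1.0, smallest possible 0.2). The groups overlapped. Without MnTE-2-PyP list 3 the difference was -0.85 points, because the other MnTE-2-PyP lists had lower shares than both untreated lists. In the pair with one run identifier in the peak names, untreated list 1 and MnTE-2-PyP list 1, the share was lower with the drug by 0.82 points (-0.82). In the other such pair, untreated list 2 and MnTE-2-PyP list 3, it was higher by 6.26 points. What these identifiers stand for is not said in the labels.

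The number of array peaks was 33 ± 14.1 without the drug (SD, n = 2) and 38.7 ± 12.50 with it (SD, n = 3), a difference of 5.67 peaks (exact permutation p = 0.8). It was higher with the drug by 8 and by 16 peaks in the pairs with one run identifier. Covered length was 23.9 ± 3.11 kb and 29.3 ± 7.42 kb (exact permutation p = 0.6), with pair differences of 9.39 and -0.68 kb. The median score percentile of array peaks averaged 78.1 ± 3.97 (SD, n = 2) and 79.5 ± 26.7 (SD, n = 3), a difference of 1.34 points (exact permutation p = 1.0) with pair differences of 17.6 and -32.2 points. It became -1.47 without untreated list 1, -5.38 without MnTE-2-PyP list 1 and -7.34 without MnTE-2-PyP list 2. Without MnTE-2-PyP list 3 it was 16.7 points. Median array width divided by the list's median width was 1.83 and 2.45 without the drug and 2.03, 3.38 and 1.70 with it. The difference in this ratio was 0.24 (exact permutation p = 1.0), with pair differences of 0.20 and -0.74. It was -0.075 without untreated list 1 and -0.27 without MnTE-2-PyP list 2. The share of lists in the rest of the window was 0.283% ± 0.155 (SD, n = 2) and 0.368% ± 0.20 (SD, n = 3; exact permutation p = 1.0). The pairs with one run identifier differed by 0.193 and 0.176 points, both higher with the drug. The difference of the means changed sign without untreated list 1 (-0.025 points) and without MnTE-2-PyP list 3 (-0.015 points). All 6 drug comparisons had an adjusted p of 1.0, and none could have passed 0.05.

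The rest of the window held few recurrent sites. One region, at 88749466 to 88749899, was in 4 lists, with scores of 6.87 in untreated list 2 and 11.4, 5.73 and 5.54 in the MnTE-2-PyP lists. The highest-scoring peaks of the rest lay in 3 regions. The first, 88637328 to 88637759, gave that peak in untreated list 1 (14.1) and MnTE-2-PyP list 3 (10.9). The second, 86488663 to 86489140, gave it in MnTE-2-PyP lists 1 (21.9) and 2 (12.8), and also had a score of 10.4 in untreated list 1. This second region is the last before the array. The third, 85490152 to 85490563, gave it in untreated list 2 (8.62). One region of 36, at 89947995 to 89948636, was in all 3 MnTE-2-PyP lists and no untreated list (scores 6.32, 3.91 and 4.80). It was singled out after its values were seen.

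The distal ends of 4q and 10q carry other clusters of recurrent peaks, and both ends are known for the D4Z4 macrosatellite. The 4q cluster (chromosome 4, 190942652 to 191012562) held 29 and 17 peaks without the drug and 31, 24 and 21 with it. The 10q cluster (chromosome 10, 135477889 to 135495206) held 15 and 12, and 18, 14 and 13. Shifted against themselves, their profiles had maxima at 3.3 kb (0.74, 1398 bins) and 6.6 kb (0.85, 346 bins). The array's maxima at 12.2 kb (0.30) and 39.65 kb (0.36) were lower. Where the highest maxima lay cannot be compared directly, because the shifts that can be searched depend on the length of the profile. The profiles spanned 69.9 kb at 4q, 17.3 kb at 10q and 114.4 kb in the right part of the array. The array's highest maximum was also sought only at shifts of 5 kb and more, which leaves out 3.3 kb. Array peaks were wider by 228 ± 235.3 bp than those of the 4q cluster and by 212.2 ± 164.1 bp than those of the 10q cluster (SD of the within-list differences, n = 5), and wider in all 5 lists in both cases (exact sign-flip permutation p = 0.063, adjusted 0.094). Score percentiles differed by -1.45 ± 2.28 points from the 4q cluster (exact sign-flip permutation p = 0.25, adjusted 0.30) and by 1.53 ± 6.15 points from the 10q cluster (exact sign-flip permutation p = 0.56, adjusted 0.56). The latter difference was -0.27 points without untreated list 2. The order of the lists by percentile was the same in the array and both clusters. MnTE-2-PyP list 2 was highest, at 96.8 in the array, 95.3 at 4q and 95.5 at 10q, and MnTE-2-PyP list 3 lowest, at 48.7, 50.7 and 56.4.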

How the data were processed

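The authors deposited 1 peak list for each of 5 p300 libraries from PC3 cells, and 4 input libraries were not used here. The genome build was hg19 and the tool named is MACS2, both per the submitters' processing notes. Not given in the sources used here are the aligner, its handling of reads that match several places, the threshold and the input set against each library. In a repeat array that handling decides in which copy a read is counted, or whether it is, so counts of peaks per copy may depend on it. The deposited score has no named scale and was turned into a percentile within its list. Coordinates are counted from 1 on hg19.

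Peaks were assigned by midpoint and merged where they overlapped by 1 bp or more. Treatment was compared by exact permutation, two-sided, over all 10 splits of 5 lists, and regions of the genome with an exact sign-flip permutation test over lists, with Benjamini-Hochberg adjustment over 6 tests each. The members, the bounds and the lists to compare were chosen with earlier results of these data known. Named regions are those in all 5 lists in the array, those in 4 or more in the rest, each list's top-scoring peak, the peaks at the bounds and the longest empty stretch. Blocks and the shifted profile replaced the planned position of peaks within one period, since block steps varied.

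Of 3 ways to score midpoint distances, the one used was chosen because it returned a period of 11 kb planted in simulated data. The other 2, tried first, returned 22 and 2.2 kb, and 1 of them had been run on these lists before the choice was made. Merging and both permutation tests were also tested on simulated data. Computations used Python 3.11.15, numpy 2.4.6, scipy 1.17.1 and matplotlib 3.10.9.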

Additional observations from a re-analysis of the deposited data

Results flagged for a closer look

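In the pairs of lists that share a run identifier, 4 array values moved in opposite directions with MnTE-2-PyP. The first pair is untreated list 1 with MnTE-2-PyP list 1, and the second is untreated list 2 with MnTE-2-PyP list 3. Treated minus untreated, the array's share of the list was -0.82 points in the first pair and 6.26 in the second. The median score percentile of array peaks was 17.6 and -32.2 points, the ratio of array to list median width 0.20 and -0.74, and the covered length 9.39 and -0.68 kb. Each pair holds 1 list per group, so the difference between pairs was not tested.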

How the results depend on the processing

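Of 120 alternative values, 100 kept their direction or stayed near the value reported, 18 changed sign and 2 moved. The lists hold no read depth, and at most 5 lists enter a test. Array width minus rest-of-window width was positive in every setting run, with leave-one-out values of 299 to 450.1 bp, as was the score percentile, at 15.3 to 30.2 points. Leaving out 1 list gave -0.85 to 2.72 points for the array share, -0.025 to 0.19 for the rest-of-window share, -7.34 to 16.7 points for the array percentile and -0.27 to 0.57 for relative width. It gave -0.27 to 3.85 points for the percentile against the 10q cluster and 89.9 to 94.9% for array peaks shared, the lowest without untreated list 1. Scores at or above the pooled median turned the rest-of-window share to -0.15. Equal numbers of top-scoring peaks gave -3.20 points for the percentile and -0.31 for relative width. Group medians gave -0.46 for the array share and -0.11 for relative width. With the replicate number as a block the array share was -0.85 and the rest-of-window share -0.015. Only numbers 1 and 2 occur in both groups, and nothing shows that they pair the samples. Pairing by run identifier gave -7.34 points for the percentile and -0.27 for relative width. The cause of these changes was not tested. Midpoint distances gave 3.05 kb in every other setting run and 40.6 kb when scored by their ratio, which returned a multiple of the planted period in simulated data. Searched between 5 and 20 kb, the shifted profile's maximum stayed at 12.2 to 12.25 kb without any 1 list, while over all shifts of 5 kb and more the highest lay at 39.65 to 39.7 kb. The number of blocks stayed at 11 to 13. Both were added after seeing the data.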
